A study of Mus musculus with 28 samples.

Results

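The genes described here are the 8 transcription factors and cofactors that move Schwann cells, the glia of peripheral nerve, from the immature to the promyelinating and myelinating state: Egr2, Pou3f1, Pou3f2, Sox10, Nab1, Nab2, Yy1 and Nfatc4. The list is one of gene names, and all 8 were found among the 41605 gene identifiers of the count table and among the 17700 genes that passed the filter on low counts. The data are bulk poly-A RNA sequencing of nerves from C57BL/6J wild-type mice that carried no transgene and received no treatment, with 4 libraries at each of 7 stages and 28 in all. The stages are embryonic days E13 and E17 and postnatal days P1, P5, P14, P24 and P60. An E13 library, though labelled sciatic nerve, held various peripheral nerves of 2 embryos, an E17 library the sciatic nerves of 2 embryos, and a postnatal library the sciatic nerves of 1 mouse. From E17 on the outer sheaths of the nerve were stripped away, so E13 differed from the later stages in dissection as well as in age. Each stage came from male and female animals, whose assignment to libraries was not used here.

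Schwann cells descend from the neural crest, and Sox10, an HMG-box factor, is needed from the first step of that lineage onward. In the cells that have sorted a single large axon, Sox10 acts with the POU-domain factors Pou3f1 (Oct6) and Pou3f2 (Brn2), which bind an octamer of DNA, to switch on Egr2 (Krox20), the zinc-finger factor required to begin and to keep up myelination. Egr2 works with its corepressors Nab1 and Nab2, which bind EGR proteins and recruit the NuRD chromatin complex. Yy1, a zinc-finger factor that responds to axonal neuregulin, and Nfatc4, a factor that the phosphatase calcineurin sends to the nucleus, have both been described as activators of Egr2.

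The promoters of Egr2 and Nab1 are shown because they hold, close to the start of transcription, the letters of a POU site and of EGR sites. The RefSeq windows (GRCm38.p6, 250 bases before to 50 after a start) covered 6 of the 8 genes in 10 windows, and none was at hand for Pou3f1 and Sox10. The patterns searched, on both strands, were the POU octamer ATGCAAAT, the EGR pattern GCGNGGGCG, in which N is any base, and the CArG box, the site of serum response factor. Capitals mark these matches, and each sequence is written 5′ to 3′ in the direction of its gene. The first is the stretch before the start of Egr2 at chr10:67537619-67537868 on the plus strand. The others are the 3 EGR matches of Nab1 at chr1:52500573-52500597, chr1:52500541-52500565 and chr1:52500470-52500494 on the minus strand. All lie within the annotated span of their gene, which in GENCODE starts farther upstream.
Egr2: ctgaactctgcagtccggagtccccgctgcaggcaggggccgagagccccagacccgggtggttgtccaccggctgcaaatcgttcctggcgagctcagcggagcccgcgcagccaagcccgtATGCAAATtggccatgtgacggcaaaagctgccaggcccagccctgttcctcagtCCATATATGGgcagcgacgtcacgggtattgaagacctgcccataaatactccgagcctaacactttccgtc
Nab1, farthest match: cccgcggcCGCCCACGCcgggatct
Nab1, middle match: tcggccgcGCGTGGGCGggagccgg
Nab1, match nearest the start: ggggcgggGCGGGGGCGgcggaggt

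In the Egr2 stretch the octamer began 127 bases and the CArG box 72 bases before the start. The octamer was in 3 of the 5 Egr2 windows, which overlap each other, and a CArG box in 4 of the 5. Among all 32851 windows, 1.74% held the octamer and 1.63% a CArG box. The Nab1 matches began 141, 109 and 38 bases before the start, the farthest of them on the opposite strand. An EGR match was in 5.55% of all windows, and among the members also in the Pou3f2 window, at 8 bases before the start. The windows of Nab2, Yy1 and Nfatc4 held none of these letters. A match is a description of the sequence and was not tested for binding.

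The values are in CPM, the usual unit of read counts scaled to library size, here with sizes corrected by TMM (trimmed mean of M-values), and differences are log2 fold changes ± SE from edgeR's quasi-likelihood test over all 17700 genes. A gene was called changed at an adjusted p under 0.05 and a fold change of at least 2. Total counts ran from 13899895 to 37662780 per library. In nerve, fewer cells of a type and less RNA per cell cannot be told apart. Of 5 Schwann cell markers (S100b, Erbb3, Cdh19, Foxd3 and Gfra3), the summed level was 216 to 463 CPM in the E13 libraries. In all later libraries it was 1180 to 1886 CPM, but the markers did not move together. From P1 to P60, S100b (3.09 ± 0.14) and Cdh19 (1.13 ± 0.26) rose and Erbb3 (-1.39 ± 0.14) and Gfra3 (-2.71 ± 0.3) fell. From E13 to E17, 4 markers rose and Gfra3 fell (93.4 to 41.2 CPM). In each of these comparisons 35.5% of all genes were called. Fibroblast and perineurial markers summed to 391 to 838 CPM at E13 and 4572 to 5673 CPM at E17. Over that step 2 of 5 rose (Col1a1 and Cldn1), near the 35.5% of all genes called. The part of these cells in the members' rises was not tested. Neuronal cell body markers summed to 265 to 451 CPM at E13 and to 2.84 to 16.1 CPM afterwards. E13 replicates 1 and 4 and P1 replicate 1 stood apart by how their deviation from the stage mean depended on transcript GC content. The slopes were -1.01, 0.79 and -0.47 log2 units per 10 percentage points of GC, against -0.18 to 0.22 in the other 25 libraries. A GC dependence shared by all libraries of a stage does not show in these slopes, and removing the GC trend does not correct it. The members' called changes that rest on the libraries apart are also given without them.

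Pou3f1 (ENSMUSG00000090125, a single exon at chr4:124656807-124660655) and Pou3f2 (ENSMUSG00000095139, a single exon at chr4:22482780-22488366) traced a rise to P1 and a long decline. Pou3f1 was at 4.54, 5.94, 8.09 and 10.5 CPM in the E13 libraries, at 26.0, 39.4, 31.3 and 37.7 CPM in those of E17 and at 113, 145, 152 and 149 CPM in those of P1. The 3 stages did not overlap, and each step was called (E17 against E13: 2.22 ± 0.22, adjusted p = 1.9e-09; P1 against E17: 2.05 ± 0.21, adjusted p = 1.8e-08). Without the 3 libraries apart by GC the steps were 2.26 and 2.14. The P5 libraries stood at 115, 121, 101 and 98.8 CPM and the P14 libraries at 53.7, 45.7, 52.9 and 62.1 CPM. At P24 Pou3f1 was down to 27.3, 23.5, 20.2 and 18.4 CPM, and the last stage, P60, had 6.29, 13.7, 11.7 and 13.8 CPM. From P5 on no stage overlapped the next.

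The difference of Pou3f1 between P5 and P1 did not pass the test (-0.36 ± 0.20, adjusted p = 0.256). From P5 to P14 it fell by 1.02 ± 0.21 (adjusted p = 3.7e-04), and from P14 to P24 by 1.27 ± 0.21 (adjusted p = 2.7e-04). From P24 to P60 it fell by 0.97 ± 0.22 (adjusted p = 0.00227), which is under the 2-fold minimum. The steps from P5 to P14 and from P24 to P60 lie near that limit: the call from P5 to P14 is lost with DESeq2 or without P5 replicate 1, P5 replicate 2 or P14 replicate 2 (-0.99 to -0.95), and P24 to P60 is called without P24 replicate 3, P24 replicate 4, P60 replicate 2 or P60 replicate 4 (-1.07 to -1.01) and with a replicate block (-1.01). Between P1 and P60 the fall was 12.2-fold (-3.61 ± 0.23, adjusted p = 2.2e-13, and -3.67 without the 3 libraries apart by GC), and the P60 level of 11.4 ± 3.53 CPM (SD, n = 4) was 8.16% of that at P1. The P60 level was above that of E13 (0.66 ± 0.22, adjusted p = 0.00962), under the 2-fold minimum and with overlapping libraries. This difference was not fitted without the libraries apart by GC. An antisense gene, Gm2164, shares 330 exon bases with Pou3f1 and had 251 counts over all libraries against 38047 for Pou3f1, and whether the counting used strand is not given in the sources used here.

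Pou3f2 had stage means 6.14-fold apart, against 19.3-fold for Pou3f1. Its mean went up from 14.3 ± 7.51 CPM (SD, n = 4) at E13 over 27.8 ± 1.78 at E17 to 47.9 ± 5.11 at P1. It was still 39.6 ± 6.21 CPM at P5, and then dropped to 16.7 ± 2.12 by P14, 10.2 ± 1.43 by P24 and 7.78 ± 1.24 by P60. The E13 libraries ranged from 7.79 to 25.0 CPM, the highest in replicate 1, which is one of the libraries apart by GC. The rise from E13 to E17 (0.95 ± 0.22, adjusted p = 4.1e-04) and that from E17 to P1 (0.79 ± 0.21, adjusted p = 0.00573) passed the p threshold and stayed under 2-fold. Without the 3 libraries apart by GC, the first of these was 1.19 (adjusted p = 8.6e-08) and was called, as it was with the GC trend removed (1.07) and with limma-voom (1.06). Pou3f2 fell by 1.24 ± 0.22 from P5 to P14 (adjusted p = 6.1e-05) and by 2.62 ± 0.23 from P1 to P60 (adjusted p = 1.5e-10), or by 2.53 without the 3 libraries apart by GC.

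Of 4 class III POU and SoxE relatives, Pou3f3 and Pou3f4 fell and Sox8 rose from E13 to E17, against 35.5% of all genes called. Pou3f3 was at 20.9 ± 3.28 CPM (SD, n = 4) at E13 and at 0.0660 ± 0.132 CPM at E17, and had no count in any library from P14 on. Pou3f4 was at 5.11 ± 0.698 CPM at E13, at 0.466 ± 0.168 CPM at E17 and at 0 in every P60 library. Both were high at the stage with the neuronal markers, whose part in these levels was not tested. Per kb of exon, Pou3f1 was at 1.89 ± 0.679 CPM per kb (SD, n = 4) at E13 and Pou3f2 at 2.55 ± 1.34, with overlapping libraries. The gap was widest in E13 replicate 1, a library apart by GC (1.18 and 4.47). In E13 replicate 4 the order was reversed (2.73 and 1.39). At P1 Pou3f1 was at 36.2 and Pou3f2 at 8.57 CPM per kb.

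**Figure D1:**
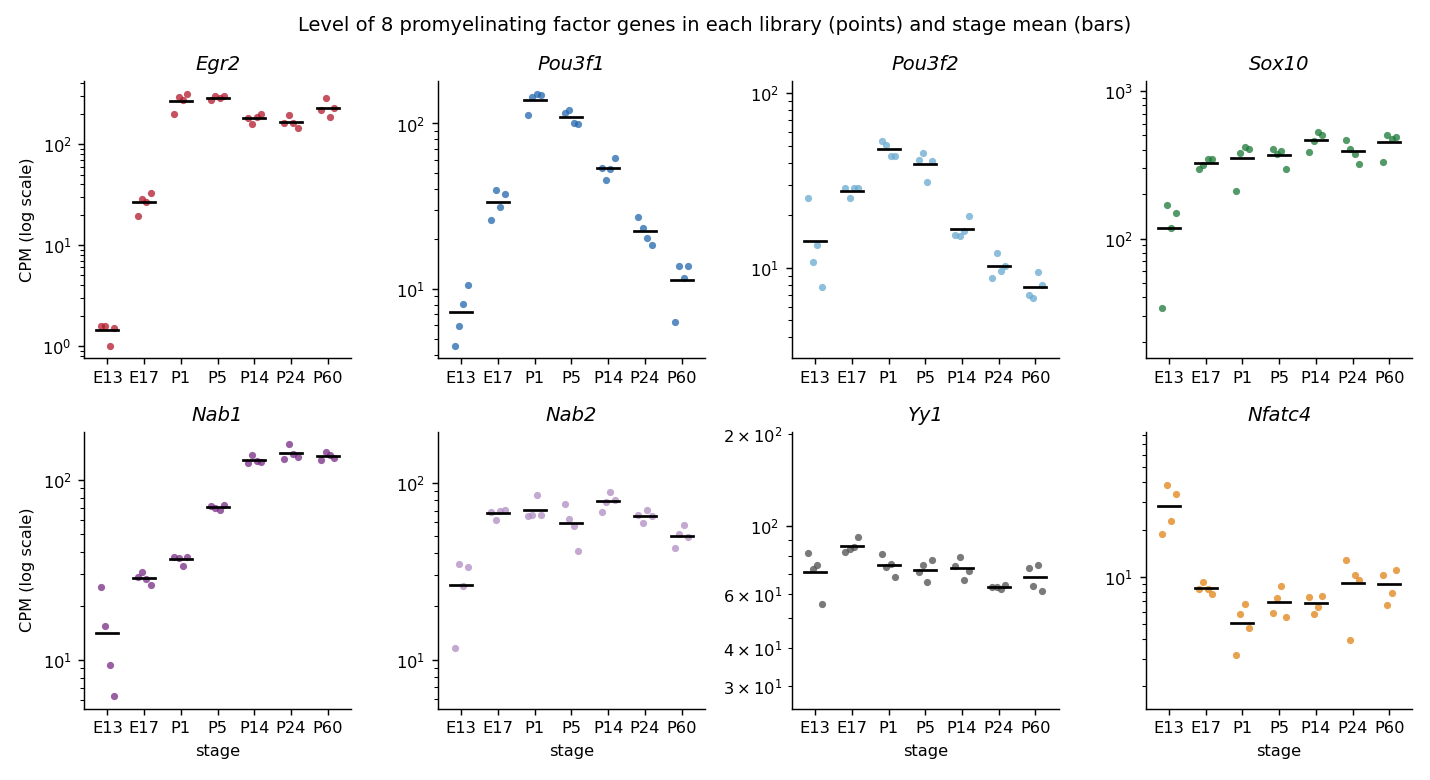
Level of each of the 8 genes in CPM (TMM-scaled, log axis, a scale of its own in each panel) in the 28 libraries, by stage. Points are libraries, 4 a stage, and bars are stage means; Egr2 lies between 1.01 and 1.59 CPM at E13 and between 199 and 316 CPM at P1, Pou3f1 peaks at P1, Nab1 climbs until P14, and Yy1 stays between 55.7 and 92.4 CPM throughout.

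Egr2 (ENSMUSG00000037868, chr10:67535475-67542188, plus strand) had the widest range of the 8 genes, with stage means 203-fold apart. In the E13 libraries it was at 1.59, 1.58, 1.01 and 1.53 CPM, which is 28 to 48 counts. At E17 it was at 19.6, 28.8, 26.6 and 32.8 CPM and at P1 at 199, 291, 274 and 316 CPM. The stages did not overlap, and Egr2 rose 18.9-fold from E13 to E17 (4.24 ± 0.19, adjusted p = 2.8e-16) and 10-fold from E17 to P1 (3.32 ± 0.17, adjusted p = 6.5e-15). Without the 3 libraries apart by GC these differences were 4.39 and 3.44.

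From P1 on the libraries lay between 144 and 316 CPM. Egr2 was at 272, 303, 284 and 299 CPM in the P5 libraries and at 182, 159, 186 and 198 CPM in the P14 libraries. It was at 163, 194, 161 and 144 CPM in the P24 libraries and at 216, 285, 188 and 227 CPM in the P60 libraries. P5 lay wholly above P14, and the difference of -0.68 ± 0.15 (adjusted p = 0.00112) was a 1.6-fold fall, under the fold minimum. From P24 to P60 the difference was 0.47 ± 0.15 (adjusted p = 0.0328), with overlapping libraries. In the order of its levels (P5, P1, P60, P14, P24, E17, E13), no neighbours among the first 5 differed past the threshold, with adjusted p between 0.0971 and 0.781. P60 against P1 was -0.24 ± 0.15 (adjusted p = 0.173), and -0.34 (adjusted p = 0.029) without the 3 libraries apart by GC.

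The relatives Egr1 and Egr3, which are immediate early genes in many cells and hold the same zinc-finger domain, are given beside it. Egr3 went from 6.88 ± 1.75 CPM (SD, n = 4) at E13 to 63.6 ± 17.2 at E17, and then came down through 49.2 ± 7.57 at P1 and 30.7 ± 4.13 at P5 to 1.28 ± 0.279 at P60. It rose by 3.21 ± 0.22 from E13 to E17 (adjusted p = 9.2e-13) and fell by 5.27 ± 0.26 from P1 to P60 (adjusted p = 9.7e-16), the interval over which the difference of Egr2 was -0.24. Egr1 ranged from 2.43 to 36.9 CPM over the 28 libraries. Fos, which rises within minutes of tissue handling in many tissues, was at 4.40 to 22.5 CPM in all libraries. Egr4 did not pass the filter on low counts. Of 8 immediate early genes, Fos among them, 2 rose from E13 to E17, 1 fell from E17 to P1 and 3 rose from P1 to P60 (Junb, Dusp1 and Arc), by 3.19 ± 0.42 in the case of Junb (adjusted p = 2.6e-07). Beside these counts stand 35.5%, 11.7% and 35.5% of all genes called, to which they are near or below.

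Sox10 (ENSMUSG00000033006, chr15:79154908-79165240, minus strand) rose from E13 to E17 and had no other called step. It was at 34.1, 170, 118 and 148 CPM in the E13 libraries, against 298, 315, 348 and 344 CPM at E17. The low value at E13 belonged to replicate 1. The rise was 1.47 ± 0.28 (adjusted p = 6.7e-05), and 1.19 (adjusted p = 1.2e-06) without the 3 libraries apart by GC. From E17 on the stage means ran from 326 to 469 CPM, and no neighbours in their order differed past the threshold (adjusted p between 0.713 and 0.94).

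The GC content of the Sox10 transcript was 63.6%, near the top of the members, which ran from 44.4% for Pou3f2 to 63.9% for Pou3f1. At P1 Sox10 was at 209, 382, 419 and 407 CPM, the lowest in the library apart by GC. With the GC trend of each library removed, the P1 libraries lay between 330 and 348 CPM, and the coefficient of variation was 2.61% in place of 27.7%. Of the SoxE relatives, Sox8 rose from E13 to E17 (1.14 ± 0.22, adjusted p = 7.2e-05) and fell from P1 to P60 (-1.36 ± 0.22, adjusted p = 6.3e-06), whereas the stage means of Sox9 stayed between 8.19 and 12.2 CPM.

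Both corepressors were higher at E17 than at E13, and their later courses are given side by side, with the difference between them not tested. Nab1 (ENSMUSG00000002881, chr1:52457294-52500679, minus strand) was at 25.6, 15.6, 9.46 and 6.32 CPM at E13, 28.9, 30.9, 28.4 and 26.3 CPM at E17 and 37.5, 36.8, 33.5 and 37.3 CPM at P1. It then reached 71.5, 70.3, 68.6 and 73.1 CPM at P5 and 125, 138, 128 and 126 CPM at P14, and it lay between 132 and 158 CPM at P24 and between 129 and 144 CPM at P60. Each stage up to P14 lay wholly above the one before it.

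Nab1 rose 3.74-fold between P1 and P60 (1.90 ± 0.22, adjusted p = 2.6e-08, and 1.94 without the 3 libraries apart by GC) in steps that were each under 2-fold: 0.97 ± 0.21 from P1 to P5 (adjusted p = 0.00182) and 0.86 ± 0.21 from P5 to P14 (adjusted p = 0.00281). The step from E13 to E17 was 1.00 ± 0.22 (adjusted p = 3.1e-04), just under the fold minimum. It was called at 1.21 (adjusted p = 2.8e-10) without the 3 libraries apart by GC and at 1.54 (adjusted p = 2.8e-13) with limma-voom. With a replicate block it was called at 1.05. Leaving out 1 library gave 0.76 to 1.44, called without E13 replicate 1 (1.44), E13 replicate 2 (1.02) or E17 replicate 4 (1.03). Removing the GC trend left the range of the E13 libraries at 6.56 to 25.6 CPM. The endothelial and pericyte markers, of which 3 of 5 rose from P1 to P60 (35.5% of all genes were called), summed to 298 to 319 CPM at P1 and to 607 to 696 CPM at P14. Of the 5 fibroblast and perineurial markers, Dpt, Slc2a1 and Cldn1 rose and Col1a1 fell from P1 to P60, and their sum was 2497 to 5090 CPM at P1 and 2995 to 4308 CPM at P14. The part of either cell type in the rise of Nab1 was not tested.

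Nab2 (ENSMUSG00000025402, chr10:127660918-127668568, minus strand) was at 11.6, 34.8, 26.3 and 33.3 CPM at E13 and 68.5, 62.0, 70.1 and 70.8 CPM at E17, a rise of 1.36 ± 0.21 (adjusted p = 4.1e-06), and of 1.16 without the 3 libraries apart by GC. Later stage means lay between 50.5 and 79.0 CPM. Nab2 was lower at P60 than at P1 (-0.48 ± 0.21, adjusted p = 0.049), which is under the fold minimum and at an adjusted p of 0.051 with a replicate block. The opposite-strand gene Gm16229 shares 1050 exon bases (35.7%) with Nab2 and had 1372 counts over all libraries against 37430 for Nab2. Nemp1 and Stat6, also on the opposite strand, share 151 and 40 exon bases with it and had 24411 and 62503 counts.

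Yy1 (ENSMUSG00000021264, chr12:108792973-108820148, plus strand) was the flattest of the 8 genes. Its stage means lay between 63.3 and 86.1 CPM, 1.36-fold apart, with the highest mean at E17 and the lowest at P24. The change over all stages passed the p threshold (adjusted p = 0.0097) and not the fold minimum. The difference between E17 and E13 was 0.28 ± 0.10 (adjusted p = 0.0179), and no other step between consecutive stages passed the p threshold. Without the 3 libraries apart by GC the step from E17 to P1 passed it as well (-0.26, adjusted p = 0.0065, against -0.21 and 0.121 with all libraries).

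Nfatc4 (ENSMUSG00000023411, chr14:55823144-55833943, plus strand) was the member that fell from E13 to E17. It was at 18.7, 38.2, 22.5 and 33.7 CPM in the E13 libraries and at 8.41, 9.24, 8.34 and 7.79 CPM in the E17 libraries, a fall of 1.74 ± 0.27 (adjusted p = 3.7e-06). Without the 3 libraries apart by GC the difference was -1.83. From E17 on its libraries lay between 3.17 and 12.9 CPM. P1 was the lowest stage (5.10 ± 1.53 CPM, SD, n = 4), and P60 was 1.76-fold above it (0.82 ± 0.28, adjusted p = 0.0123, and 0.67 without the 3 libraries apart by GC), under the fold minimum. The difference of P1 against E17 was -0.73 ± 0.27 (adjusted p = 0.0449), also under the fold minimum. Its adjusted p was 0.054 with a replicate block and 0.084 without the 3 libraries apart by GC. All 6 neuronal cell body markers fell with Nfatc4 from E13 to E17 and were called, and their part in its fall was not tested. Skeletal muscle markers, 4 of 5 of which also fell over this step, summed to 22.7 to 531 CPM at E13. Of the immune cell markers 3 of 4 fell over it, and of the erythroid genes 4 of 4. Their part in the fall of Nfatc4 was likewise not tested. Over this step 35.5% of all genes were called.

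**Figure D2:**
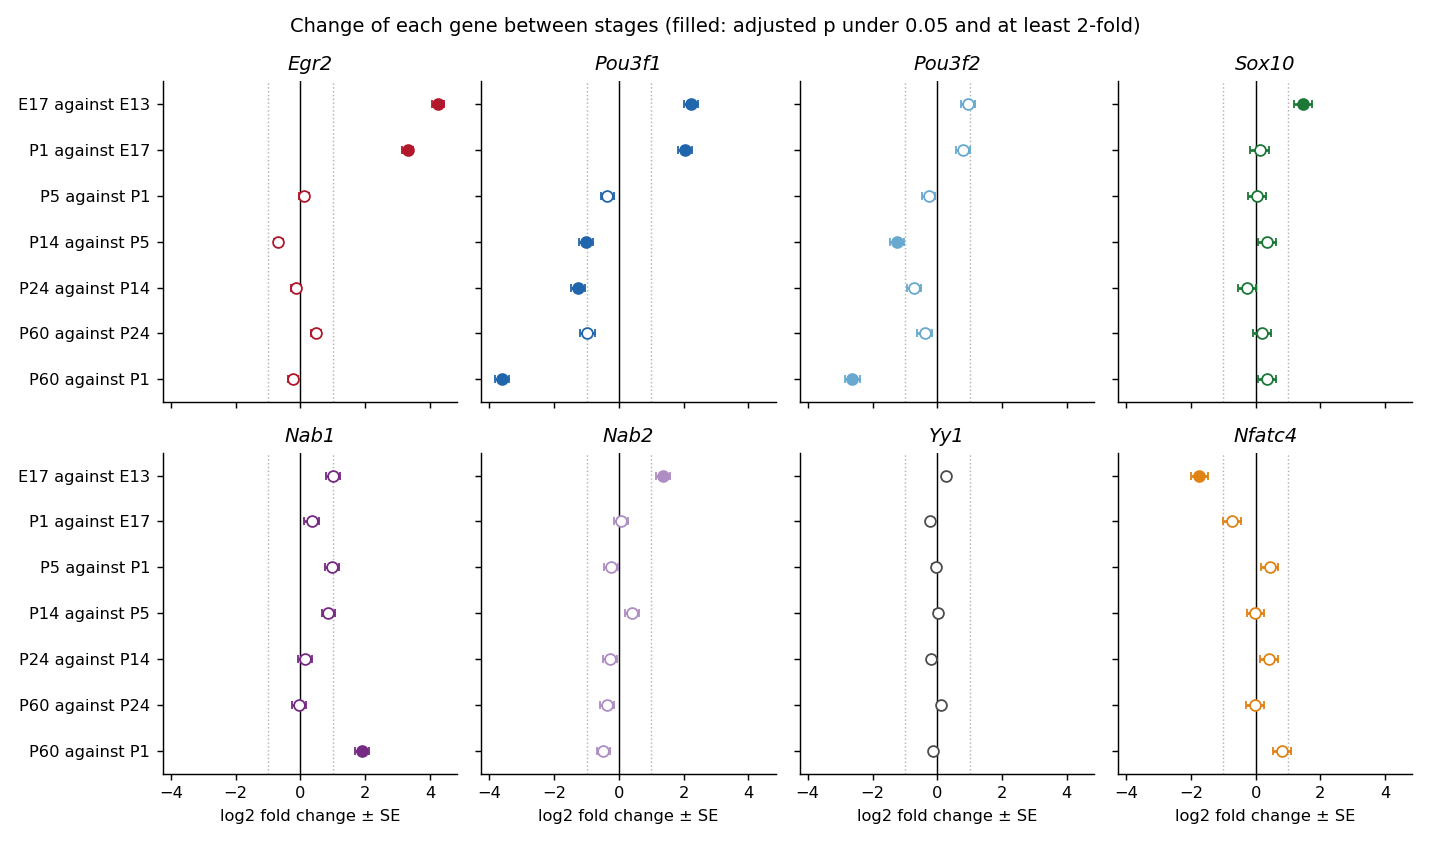
Log2 fold change ± SE (edgeR) of each gene for the 6 steps between consecutive stages and for P60 against P1; filled points passed an adjusted p of 0.05 and the 2-fold minimum marked by dotted lines. The filled points of Egr2, Sox10 and Nab2 are in the embryonic and perinatal steps, those of Pou3f1 lie on both sides of 0, and Yy1 has none.

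From E13 to E17, 4 members rose (Egr2, Pou3f1, Sox10 and Nab2) and 1 fell (Nfatc4), against 35.5% of all genes called. From E17 to P1, 2 rose (Egr2 and Pou3f1), against 11.7% of all genes. From P5 to P14, Pou3f1 and Pou3f2 fell, against 12.0%, and from P14 to P24 Pou3f1 fell, against 2.65%. Between P1 and P60, Nab1 rose and Pou3f1 and Pou3f2 fell, against 35.5% of all genes.

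For P5 against P1 (5.84% of all genes called) and P60 against P24 (5.96%), edgeR, limma-voom and DESeq2 called 0 members, and 1 and 2 members had an unadjusted edgeR p under 0.05. Over all 7 stages together, 7 of the 8 genes were called, against 70.0% of all genes. The median log2 difference of the 8 genes was 1.18 from E13 to E17, beside -0.08 for all genes, and lay between -0.23 and 0.23 in the other comparisons. From E13 to E17, 7 members were called without the 3 libraries apart by GC and with limma-voom, the same 5 with Pou3f2 and Nab1, where 6490 and 6968 of all genes were called in place of 6276, and the counts of 2, 0 and 3 for P1 against E17, P5 against P1 and P60 against P1 did not move.

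The ratio of 2 members within a library is free of the scaling between libraries, and a ratio to Sox10 sets a factor against a gene of the same lineage. The log2 ratio of Egr2 to Sox10 counts was -4.37, -6.68, -6.77 and -6.50 in the E13 libraries, -3.91, -3.44, -3.70 and -3.39 at E17 and -0.07, -0.39, -0.61 and -0.36 at P1. As a geometric mean it was 1.48% at E13, where replicate 1 lay far above the others, 8.18% at E17 and 77.9% at P1. The log2 difference between E17 and E13 was 2.47 with all libraries, 3.04 without E13 replicate 1 and 3.11 without the 3 libraries apart by GC. The ratio was 79.5% at P5 and between 38.9% (P14) and 51.1% (P60) thereafter, and the fall from P5 to P14 (-1.03) had no overlap between libraries.

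The ratio of Pou3f1 to Sox10 rose from 10.2% at E17 to 40.6% at P1 and then fell at each stage, to 29.8%, 11.5%, 5.74% and 2.48% at P60, with no overlap between one stage and the next. At P24 the 4 libraries lay within -4.20 and -4.08 on the log2 scale, and at P60 within -5.69 and -5.13. From E13 to E17 the difference was 0.55 (exact two-sided permutation p = 0.23) with overlapping libraries. Without E13 replicate 1, the libraries of these 2 stages did not overlap and the difference was 0.87, and without the 3 libraries apart by GC it was 1.05.

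Egr2 and Pou3f1 changed places. Their log2 ratio was -2.24 ± 0.68 (SD, n = 4) at E13, below 0 still at E17 (-0.32 ± 0.12), and above it from P1 (0.94 ± 0.13) on. It was 1.41 ± 0.16 at P5, then 1.76 ± 0.06 at P14, and reached 2.89 ± 0.22 by P24 and 4.36 ± 0.50 by P60. Each stage lay wholly above the one before it. As a geometric mean, the Egr2 count was 0.212 times that of Pou3f1 at E13 and 20.6 times at P60. Of the 21 ratio tests (3 ratios in 7 comparisons), 17 had no overlap, and each of these gave the smallest p that 4 against 4 libraries allow in an exact two-sided permutation test, 0.029 (adjusted p = 0.036 over the 21 tests). With the GC trend removed, the steps from P1 to P5 (0.47) and from P5 to P14 (0.34) overlapped.

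**Figure D3:**
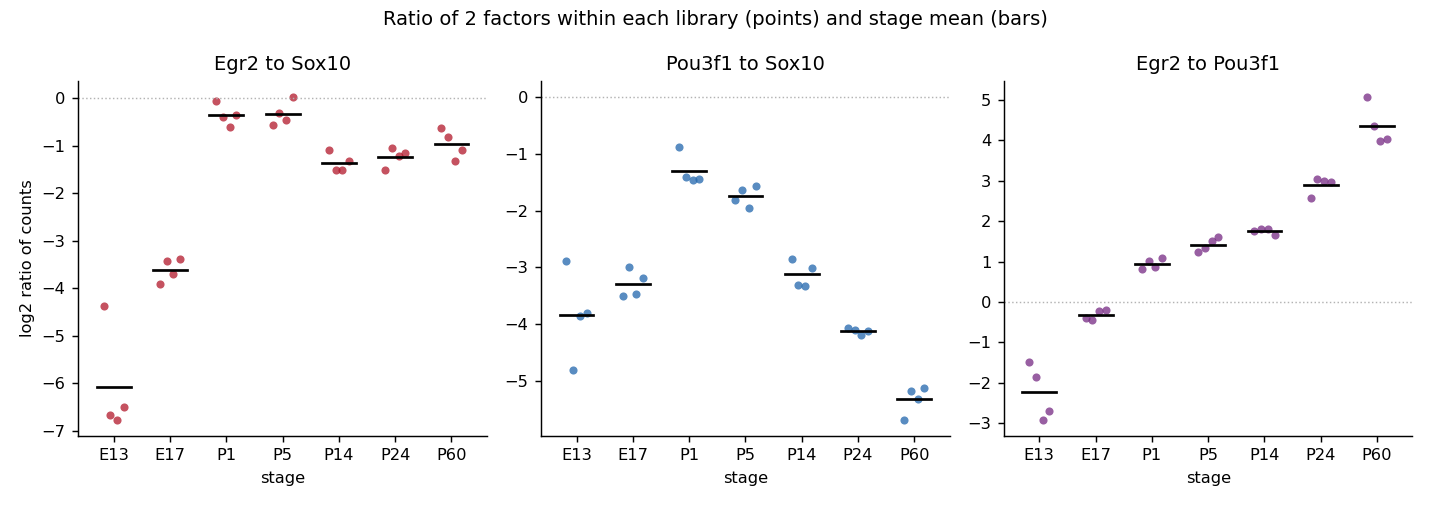
Log2 ratio of the counts of 2 factors within each library, by stage; points are libraries, 4 a stage, bars are means, and the dotted line marks equal counts. Egr2 to Sox10 climbs to P1 (mean -0.36), Pou3f1 to Sox10 peaks there (mean -1.30), and Egr2 to Pou3f1 goes up at every stage, from a mean of -2.24 to 4.36.

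Levels of different genes were compared per kb of exon. Sox10 was first at each of the 7 stages, from 38.5 ± 19.5 CPM per kb (SD, n = 4) at E13 to 154 ± 20.4 at P14. Egr2 had rank 8 at E13 (0.420 ± 0.0817 CPM per kb), rank 5 at E17 (7.94 ± 1.62) and rank 2 from P1 (79.5 ± 14.9) to P60 (67.4 ± 12.1). Pou3f1 had rank 3 at P1 and P5 and rank 6 at P24 and P60. Nab1 went from rank 6 at P1 (8.85 ± 0.459 CPM per kb) to rank 3 from P14 on (33.1 ± 1.56 at P60), where it stood above Nab2 (17.2 ± 2.13 at P60). Nfatc4 was last from E17 to P24.

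**Figure D4:**
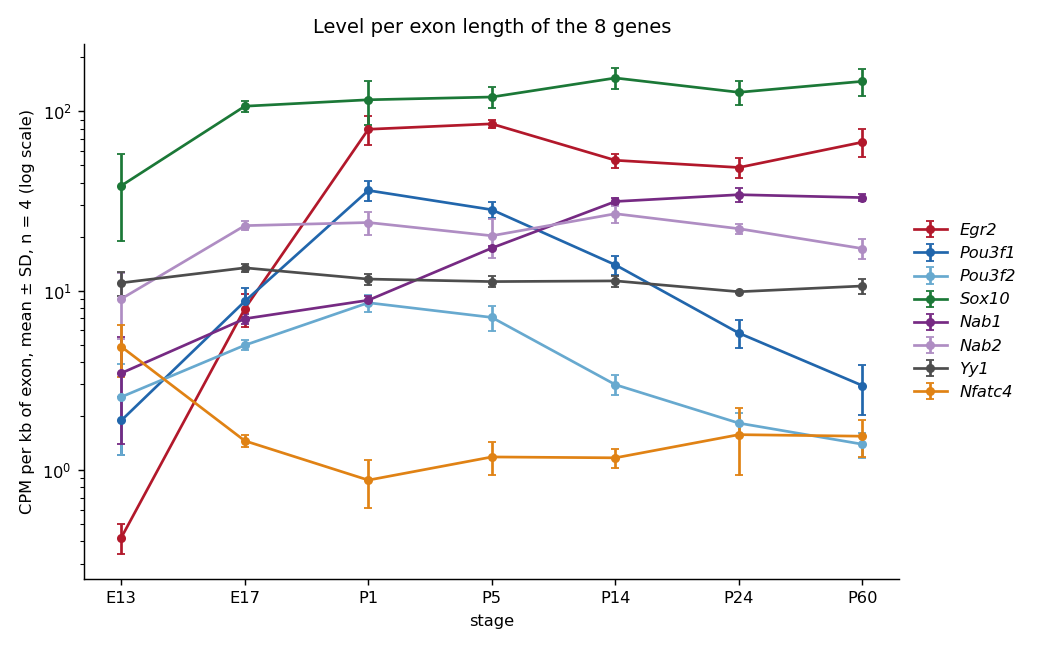
Mean CPM per kb of exon ± SD (n = 4, log axis) of the 8 genes at the 7 stages. Sox10 is the highest line throughout, Egr2 passes from the lowest at E13 to the second from P1 on, and Nab1 and Pou3f1 cross between P5 and P14.

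Partners and targets of the members were taken from fixed lists and are described by counts. Of 12 genes of myelin proteins and junctions, 9 rose and 1 fell from E13 to E17, 10 rose from E17 to P1 and 7 rose from P1 to P5, and the median differences were 2.91, 2.94 and 1.17 beside -0.08, 0 and 0 for all genes, of which 35.5%, 11.7% and 5.84% were called. Their summed level went from 401 to 621 CPM in the E13 libraries to 21430 to 34080 CPM at P1 and 122900 to 147300 CPM at P14, whereas Egr2 was within 1.07-fold of its highest stage at P1 already. Ncmap, a small membrane protein of myelin, was at 0.698 ± 0.297 CPM (SD, n = 4) at E17 and 236 ± 49.6 at P1 (8.39 ± 0.26, adjusted p = 1.7e-19). Gjb1, the gap junction protein connexin 32, was at 0.229 ± 0.155 and 29.95 ± 5.29 CPM at these stages (7.0 ± 0.29, adjusted p = 9.5e-17). Drp2, which links periaxin to dystroglycan, continued upward to P60 (7577 ± 427 CPM) and rose by 6.05 ± 0.16 from P1 (adjusted p = 6.1e-21), while Pmp2, a fatty acid binding protein, fell by 2.46 ± 0.18 from P24 to P60 (adjusted p = 1.4e-10).

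Of 6 factors that hold Schwann cells immature or oppose Egr2, 4 fell from P1 to P60, with a median of -1.13 beside -0.02 for all genes, of which 35.5% were called. Id2, an inhibitor of basic helix-loop-helix factors, had its highest mean at P1, as Pou3f1 did, at 285 ± 13.1 CPM (SD, n = 4), and was at 7.13 ± 1.54 CPM at P60 (-5.32 ± 0.15, adjusted p = 1.5e-20). Sox2, a factor of immature Schwann cells, fell by 1.19 ± 0.18 (adjusted p = 2.0e-06) and Id4 by 1.07 ± 0.24 (adjusted p = 4.0e-04). Pax3, a neural crest factor, was at 0.208 ± 0.0982 CPM at P1 and at 0 in every P60 library. From E17 to P1, Hes1, a target of Notch, was among the 2 that fell (-1.29 ± 0.19, adjusted p = 6.4e-06), against 11.7% of all genes called.

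Of 13 subunits of NuRD, the complex that Nab proteins recruit, 3 fell and 1 rose from P1 to P60, against 35.5% of all genes called in either direction, with a median of -0.58 beside -0.02 for all genes. That count is near the share of all genes. The deacetylases Hdac2 (-1.75 ± 0.19, adjusted p = 1.2e-08) and Hdac1 (-1.04 ± 0.09, adjusted p = 9.6e-11) and the remodeler Chd3 (-1.23 ± 0.19, adjusted p = 2.3e-06) fell. Mta3 rose (1.38 ± 0.10, adjusted p = 3.8e-12). Chd4, the subunit that binds Nab proteins, had its highest mean at P5 (569 ± 22.95 CPM, SD, n = 4) and its lowest at P24 (253 ± 11.4).

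Of 9 chromatin and transcription cofactors, 2 rose from E13 to E17, a smaller share than the 35.5% of all genes called. Zeb2, a repressor of inhibitors of myelination, went from 89.7 ± 45.5 to 804 ± 37.95 CPM (SD, n = 4; 3.16 ± 0.23, adjusted p = 3.5e-12). Tead1, the partner of Yap and Taz, went from 102 ± 41.7 to 584 ± 29.2 CPM (2.52 ± 0.18, adjusted p = 2.8e-12). From P1 to P60, 4 of the 9 fell, among them Tead1 (-1.69 ± 0.17, adjusted p = 3.3e-09) and the Yy1 relative Yy2 (-1.92 ± 0.35, adjusted p = 3.1e-05), and 1 rose, with a median of -0.84 beside -0.02 for all genes, of which 35.5% were called. Smarca4, the ATPase Brg1 that Sox10 recruits, fell by 1.07 ± 0.15 (adjusted p = 4.9e-07), and Srebf1, a regulator of lipid synthesis, rose by 1.08 ± 0.27 (adjusted p = 0.0010).

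Of 8 genes of calcineurin and the other NFAT factors, 2 rose from E13 to E17 and 2 rose from P1 to P60, a smaller share in each case than the 35.5% of all genes called. Nfatc2 went from 7.84 ± 3.41 to 29.2 ± 2.13 CPM (SD, n = 4; 1.90 ± 0.18, adjusted p = 4.7e-10) and Nfatc1 from 9.68 ± 2.50 to 28.8 ± 1.02 CPM (1.57 ± 0.16, adjusted p = 3.4e-09). From P1 to P60, Nfat5, which responds to osmotic stress, rose by 1.34 ± 0.29 (adjusted p = 2.2e-04) and Nfatc1 by 1.28 ± 0.16 (adjusted p = 7.8e-08). Neither the catalytic subunits Ppp3ca, Ppp3cb and Ppp3cc nor the regulatory subunit Ppp3r1 was among the called genes of these 2 comparisons.

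The genes most like each member were those with the highest Pearson r of log2 CPM over the 28 libraries, given as a description, since the points share stages and libraries. For Egr2 they were Efhd1 (0.99), Cldn19, the myelin junction protein claudin 19 (0.987), and Rnf130 (0.987). Pou3f1 was most like Cux1 (0.967), Tll2 and Gpr157, and Pou3f2 most like Asxl3 (0.957), Srgap1 and Ammecr1. Sox10 was nearest to Lmna, which encodes lamin A/C (0.97), Nab1 to Ogn, an extracellular matrix proteoglycan (0.99), and Nab2 to Micall2 (0.943). The values for Yy1 (Pwwp2a, 0.872) and Nfatc4 (Zfp385a, 0.933) were lower. Among the members, Sox10 and Nab2 were the closest pair (0.89), Pou3f1 and Pou3f2 were at 0.78, Egr2 and Pou3f1 at 0.64 and Pou3f1 and Nab1 at 0.13.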

How the data were processed

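Bulk poly-A RNA of 28 nerve libraries, 4 a stage, was measured. The deposited values are raw counts per gene, made by the authors from stranded single-end reads with STAR 2.6.1c and featureCounts on GRCm38.p5, per the submitters' processing notes; the settings for strand and for reads that map to several places are not given in the sources used here. The columns were matched to stages by library title. Symbols, exon lengths and GC content came from GENCODE M21, in which 41519 of 41605 identifiers (99.79%) matched.

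Genes with low counts were removed (filterByExpr by stage), leaving 17700, and edgeR 4.0.16 (R 4.3.3) was fitted to all 28 libraries with stage as the only term, TMM scaling and Benjamini-Hochberg adjustment over all 17700 genes. The study's methods name no test for this timeline. A call needed an adjusted p under 0.05 and a 2-fold change. Libraries came from different animals. Ratios of 2 members were tested by exact two-sided permutation over libraries. At 13899895 to 37662780 counts a library, the lowest member value rested on 28 counts. The fit was also run on simulated counts, and the outcome is not given here. Alternatives were limma-voom (limma 3.58.1), DESeq2 1.42.0, other scalings and filters, a replicate block, removal of each library's GC trend about its stage mean and leaving out libraries. Stage means under other scalings were added after the data were seen.

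The members and lists were chosen with earlier results of these data known. From each list up to 4 genes were named, those with the largest change among genes called in P1 against E17 or P60 against P1, and for each member the 3 genes most like it by Pearson r of log2 CPM (prior count 2), among genes with a symbol that is no clone name, at least 10 CPM at their highest stage and, except for Yy1, stage means at least 2-fold apart (7548 candidates, 11462 for Yy1). Egr1, Fos, Pou3f3, Sox9, Chd4, Zeb2, Id4, Nfatc2 and the calcineurin subunits lie outside this rule and were named after their values were seen, as were changes from E13 to E17 of list genes and that of Pmp2 from P24 to P60. A gene that is not reported here was left out of the likeness ranking. Fold changes of genes with no count in a stage are not given.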

Additional observations from a re-analysis of the deposited data

Results flagged for a closer look

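In 6 of 77 groups of 4 libraries (a level or a log2 ratio at a stage), the highest or lowest library lay farther from the others than Dixon's 95% limit allows; chance gives about 1 such group in 20. E13 replicate 3 was the lowest library of its stage in Egr2 (1.01 CPM), on 28 counts. E17 replicate 2 was the lowest in Pou3f2 (25.1 CPM), and P1 replicate 3 the highest in Nab2 (85.9 CPM).

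The other cases were ratios. The log2 ratio of Egr2 to Sox10 was -4.37 in E13 replicate 1, the library with the steepest dependence on GC (slope -1.01), where the other libraries of the stage were at -6.77 to -6.50. The log2 ratio of Pou3f1 to Sox10 was -0.88 in P1 replicate 1, which also stood apart by GC (slope -0.47). The log2 ratio of Egr2 to Pou3f1 was 2.57 in P24 replicate 1, below the other P24 libraries and above every P14 library.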

How the results depend on the processing

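Under the alternatives, 155 counts of called members were within 1.5 times the reported count, 11 were higher and 5 lower. With no fold minimum, 8 members passed for E17 against E13, 4 for P1 against E17, 1 for P5 against P1, 4 for P14 against P5, 2 for P60 against P24 and 5 for P60 against P1, beside 11014, 5225, 3114, 5233, 2845 and 10820 of all 17700 genes. For E17 against E13, 7 were called with limma-voom, 7 without the 3 libraries apart by GC and 6 with the GC trend removed, beside 6968, 6490 and 6498 of all genes (6276 in the reported fit). For P14 against P5, 1 member was called with DESeq2 size factors and with the DESeq2 test, where Pou3f1 was just under 2-fold, and leaving out 1 library gave 1 to 2 (1 without P5 replicate 1, P5 replicate 2 or P14 replicate 2). For P60 against P24, leaving out 1 library gave 0 to 1, with Pou3f1 called without P24 replicate 3, P24 replicate 4, P60 replicate 2 or P60 replicate 4.

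With library size alone, 27 stage means moved by over 1 SD. Changes of sign were found only in differences that had not passed the test. With library size alone as scaling, which moved the median of all genes from -0.08 to -0.33 for E17 against E13 and left it between -0.22 and 0.10 in the other comparisons, they were Nab2 for P1 against E17 (-0.06), Egr2 and Sox10 for P5 against P1 (-0.10 and -0.14), Yy1 for P14 against P5 (-0.16) and Nab1 and Nfatc4 for P60 against P24 (0.06 and 0.09). With limma-voom they were Sox10 for P5 against P1 (-0.06) and Nfatc4 for P14 against P5 (0.01), the latter also with DESeq2 size factors and the DESeq2 test (both 0.01), and with no filter Yy1 for P14 against P5 (-0.01). Without the 3 libraries apart by GC, P5 against P1 was -0.01 for Egr2, -0.12 for Sox10 and 0.01 for Yy1, and Pou3f1 to Sox10 for E17 against E13 was 1.05 with no overlap. With the GC trend removed, Egr2 to Pou3f1 overlapped for P5 against P1 (0.47) and P14 against P5 (0.34).

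Leaving out 1 library at a time gave -0.04 to 0.09 for Nab2 (P1 against E17), and for P5 against P1 -0.01 to 0.19 for Egr2, -0.12 to 0.14 for Sox10 and -0.09 to 0.01 for Yy1. For P14 against P5 it gave -0.03 to 0.05 for Yy1 and -0.11 to 0.12 for Nfatc4, and for P60 against P24 -0.09 to 0.01 for Nab1 and -0.27 to 0.17 for Nfatc4. The ratios Egr2 to Sox10 (P5 against P1) and Pou3f1 to Sox10 (E17 against E13) ranged from -0.09 to 0.12 and from 0.23 to 0.87. The cause was not tested in these cases.

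With the replicate number as a block, 6 members were called for E17 against E13 (Nab1 at 1.05 was added) and 1 for P60 against P24 (Pou3f1 at -1.01), beside 6303 and 1055 of all genes, and the other counts of 2, 0, 2, 1 and 3 did not move. Deviations of the 28 same-numbered pairs in the 7 comparisons correlated at 0.00 to 0.31 (median 0.12, against -0.08 for other numbers), and 17 of 28 correlated best with their own number, a hint from the data of shared structure. Of the 28 pairs, 19 were over 0.1. The labels name no shared litter or batch, and the numbers were not used as pairs. Whether the sex of the animals follows the numbers was not tested.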
